A study of Drosophila melanogaster with 20 samples.

Results

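Fly embryos that expressed hairpins against *wnt-4* and *otk-1* together (wnt-4 RNAi otk-1 RNAi, called double RNAi embryos from here on) were compared with WT embryos. These make up 4 of the 20 RNA-seq libraries of the series, 2 in each group, and were picked by their labels alone. Every value below therefore rests on n = 2. Eggs of *Drosophila melanogaster* were laid for 24 h at 25 °C before harvest. A library thus mixes whole embryos of many ages, whose total RNA was read in pairs of 151 bp. Both hairpins are UAS transgenes, and the driver (mat,da-GAL4) joins a maternal tubulin GAL4VP16 to *daughterless* GAL4, which act in the mother's germline and broadly in the embryo. The study's methods list more than 1 otk-1 RNAi stock. The sources used here do not say which of them was sequenced or whether WT embryos carried the driver. Embryos with a single hairpin on the same driver, labelled wnt-4 RNAi or otk-1 RNAi (2 libraries each), served for a pair of direct comparisons.

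*Wnt4* encodes a secreted Wnt ligand, and *otk* (otk-1) a transmembrane protein with an inactive kinase domain, the fly relative of vertebrate PTK7, that acts as a Wnt co-receptor. *otk2* (otk-2) is its paralog and neighbour. Wnt ligands bind Frizzled receptors and act through Dishevelled, either on Armadillo (β-catenin) and the transcription factor Pangolin or on cell polarity without Armadillo. In the embryonic epidermis Wingless, the best known fly Wnt, keeps segment borders and decides which cells make naked cuticle and which make denticles, and Wnt-4 can oppose it. The comparison asks how the RNA of the embryo differs when ligand and co-receptor are targeted at once.

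The 4 libraries held 34484961 and 36594079 counts (double RNAi) and 35479350 and 36021413 counts (WT), and all 20 held 33641557 to 41753919. Levels are given as CPM (counts scaled for library size), and differences as log2 fold changes of double RNAi over WT ± SE, except where the text names a single RNAi group as the denominator. A gene passed at an adjusted p under 0.1 (10% FDR). Whether the pair of libraries in each group stems from 2 egg collections is not stated. A p-value here thus sets a difference between groups against the spread within such pairs, which may be technical. An exact two-sided permutation test of 2 against 2 cannot go below p = 0.333, which is why all p-values come from 1 model over all genes and libraries. In RNA of whole embryos, fewer cells of a type and less RNA per cell cannot be told apart.

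The targeted genes were examined first. *otk* (chromosome arm 2R, positions 12001473 to 12019846, dm6) was found at 52.8 and 55.4 CPM in double RNAi embryos, against 198.5 and 177.7 CPM in WT embryos. Both double RNAi libraries lay far below both WT libraries, and *otk* fell by 1.80 ± 0.19 on the log2 scale (adjusted p = 1.44e-05). *Wnt4* (2L, positions 7255419 to 7277171) was found at 76.6 and 89.2 CPM in double RNAi embryos, against 126.2 and 106.8 CPM in WT embryos, a difference of -0.49 ± 0.15 (adjusted p = 0.0153) between groups that did not overlap. That difference did not pass in the fit with the stage score described below (-0.28, adjusted p = 0.371), in a fit of the 4 libraries alone (adjusted p = 0.117) or without WT replicate 1 (adjusted p = 0.102). *otk2* (2R, positions 12023146 to 12025272), which no hairpin of this group targets, had 37.4 and 49.1 CPM in double RNAi embryos, against 67.5 and 61.6 CPM in WT embryos (-0.58 ± 0.14, adjusted p = 0.00373). The use of strand in counting is not stated. Reads of *Wnt4* and the overlapping gene CG31909, or of *otk* and the overlapping lncRNA:CR44306, therefore cannot be told apart.

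The single hairpin groups place these levels. For *otk*, the 52.8 and 55.4 CPM of double RNAi embryos fell within the range of otk-1 RNAi embryos (56.0 and 46.0 CPM), with a difference of 0.09 ± 0.18 for double RNAi over otk-1 RNAi (adjusted p = 0.796). In embryos labelled wnt-4 RNAi, *Wnt4* stood at 158.9 and 143.2 CPM, above both WT libraries, so its RNA goes against that label. In otk-1 RNAi embryos, whose label names no *wnt-4* hairpin, *Wnt4* had 90.1 and 89.4 CPM, and the double RNAi differed from them by -0.11 ± 0.15 (adjusted p = 0.661). The *Wnt4* level of double RNAi embryos was thus under that of WT and of wnt-4 RNAi (-0.87 ± 0.16, adjusted p = 0.0259). It was not separated from that of otk-1 RNAi. *Wnt4* also lay under both WT libraries in the other groups labelled with neither a *wnt-4* hairpin nor its overexpression. These were otk-2 RNAi (84.5 and 62.9 CPM), otk-1 RNAi otk-2 RNAi (78.8 and 66.2 CPM) and UAS-otk-1 embryos (83.9 and 81.0 CPM). In wnt-4 RNAi otk-2 RNAi embryos, whose label also names a *wnt-4* hairpin, *Wnt4* had 74.9 and 82.9 CPM, again under both WT libraries. No test was made for those groups.

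**Figure D1:**
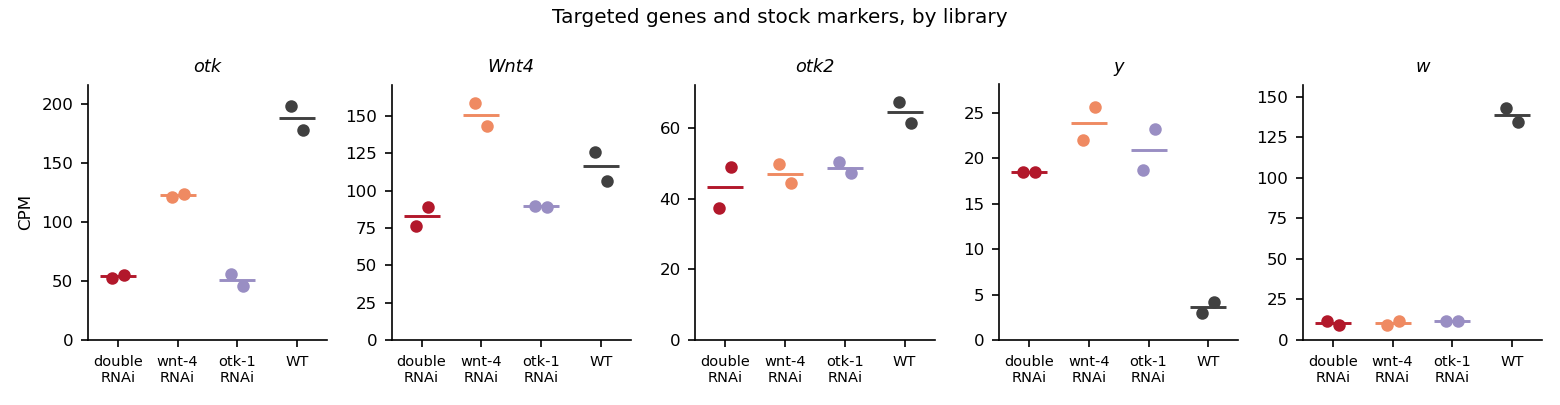
CPM (y axis, starting at 0) of *otk*, *Wnt4*, *otk2*, *y* and *w* in the libraries of double RNAi, wnt-4 RNAi, otk-1 RNAi and WT embryos (points; lines are group means, n = 2). *otk* lies near 50 CPM in both groups with an otk-1 hairpin, *Wnt4* is highest where the label says wnt-4 RNAi, and *y* and *w* set the RNAi libraries shown apart from WT.

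Genes that mark fly stocks also separated the groups. *w*, whose product carries eye pigment precursors, had 11.9 and 9.32 CPM in double RNAi embryos, against 143.2 and 134.0 CPM in WT embryos (-3.70 ± 0.18, adjusted p = 4.1e-08). *y*, a gene of cuticle pigment, had 18.5 and 18.5 CPM in double RNAi embryos, against 3.03 and 4.15 CPM in WT embryos (2.37 ± 0.23, adjusted p = 9.63e-06). Over all 12 libraries with a hairpin *w* lay between 9.14 and 14.7 CPM and *y* between 18.5 and 30.7 CPM. Stock background and hairpins therefore change together in every comparison of a hairpin group with WT and cannot be told apart there. Groups that overexpress *wnt-4* or *otk-1*, whose labels name no hairpin, had *w* between 18.8 and 110.6 CPM, lowest in UAS-otk-1 embryos. In the same groups *y* lay between 1.82 and 3.66 CPM. Neither gene passed between double RNAi and the single RNAi groups (*w*, adjusted p = 0.902 and 0.679; *y*, 0.402 and 0.611). Their levels do not show whether the rest of the background was shared. In 40 of 42 genes at least 4-fold higher in wnt-4 RNAi than in otk-1 RNAi, the double RNAi mean lay between them. It also did in 28 of 32 genes at least 4-fold higher in otk-1 RNAi. At a cut of 2-fold it did in 112 of 149 and 58 of 82 genes. These genes were chosen for a gap between the single RNAi groups, so a position between them was likely in advance. The part of stock background in these levels was not tested.

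Markers of embryo age moved with the groups as well. A stage score, the mean log2 CPM of cuticle protein, sarcomere and neuron genes minus that of maternal, germ plasm and blastoderm genes, was -1.30 and -1.86 in double RNAi libraries and 0.57 and -0.72 in WT libraries. The early side was made of the lists of germ plasm, egg activation, first zygotic, gap and pair-rule genes. WT replicate 1 had the highest score of the 20 libraries. The gap between the 2 WT libraries was wider than that between the 2 double RNAi libraries. The part of stage in the differences from WT was not tested beyond a fit that carries the score as a covariate. Since both double RNAi libraries scored below both WT libraries, that fit extrapolates. For the lists that make up the score it is not an independent check.

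Of 11154 genes tested, 6940 (62.2%) passed between double RNAi and WT embryos. Of these, 3443 (30.9%) were higher and 3497 (31.4%) lower in double RNAi embryos, and the median over all genes was -0.08. A change of at least 2-fold was seen in 1487 of the genes that rose and 1266 of those that fell. The libraries of the groups did not overlap in 8240 genes (73.9%). Once the stage score was carried in the fit, 2193 genes were higher and 1496 lower. Without double RNAi replicate 2 the genes lower dropped to 2279. Counts for gene groups are to be read against these shares, since about 3 in 10 of all genes passed in each direction.

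Among named genes that averaged at least 100 counts, the largest rise was that of *GILT3*, a member of the lysosomal thiol reductase family. It had 49.4 and 91.3 CPM in double RNAi embryos, against 2.53 and 2.17 CPM in WT embryos (4.90 ± 0.34, adjusted p = 6.87e-07). *Cyp6d4*, a cytochrome P450 gene, came next with 114.6 and 180.3 CPM in double RNAi embryos, against 7.44 and 6.78 CPM in WT embryos (4.37 ± 0.26, adjusted p = 2e-07). *Cyp6a20*, another P450 gene, had 31.6 and 53.2 CPM, against 4.22 and 2.69 CPM in WT embryos (3.61 ± 0.32). *GstT3*, a glutathione transferase, had 88.0 and 101.2 CPM, against 8.33 and 10.6 CPM in WT embryos (3.33 ± 0.19). In these 4 genes the lower double RNAi library was many times the higher WT library. The other 8 of the 12 largest rises were those of *l(3)72Dp* (3.71 ± 0.34), *Prosalpha1* (3.32 ± 0.92), *gd* (3.25 ± 0.54), *rtet* (3.07 ± 0.18), *HSPBAP1* (3.05 ± 0.24), *mael* (3.01 ± 0.28), *BigH1* (3.01 ± 0.58) and *Rcd4* (2.93 ± 0.22). *gd* encodes a protease of the dorsal-ventral cascade, *mael* a protein of the germline piRNA pathway and *BigH1* the linker histone of the early embryo. All 12 kept their sign in every alternative fit, and all but *Prosalpha1* (adjusted p = 0.148 with the stage score) passed in each.

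Levels of these genes differed among the other groups, which are named here by their labels. *Cyp6a20* lay at 25.6 to 53.2 CPM in the 3 groups whose label names wnt-4 RNAi and at 1.92 to 12.4 CPM in the other 7 groups. *Cyp6d4* lay at 91.0 to 180.3 CPM in those same 3, at 51.7 to 69.7 CPM in those labelled with otk-1 RNAi alone or beside otk-2 RNAi, and at 4.78 to 10.5 CPM in all other groups. *GILT3* lay at 37.6 to 91.3 CPM wherever the label names a hairpin against *wnt-4* or *otk-1*, at 20.7 to 32.9 CPM in both groups that overexpress *wnt-4*, at 13.7 and 20.1 CPM in otk-2 RNAi embryos and at 3.58 and 2.05 CPM in embryos that overexpress *otk-1*. These levels are given as a description, with no test between those groups.

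The largest falls held *w* and members of 2 gene families, in which the counting may have split reads between similar copies. *Hsp70Ab*, a heat shock gene, had 12.6 and 9.54 CPM in double RNAi embryos, against 20.2 and 620.0 CPM in WT embryos, so its difference (-4.85 ± 2.27, adjusted p = 0.0839) rests on WT replicate 2. The gene was also high in replicate 2 of other groups: it stood at 292.5 to 720.1 CPM in that replicate of WT, UAS-wnt-4, UAS-otk-1, otk-1 RNAi, wnt-4 RNAi otk-2 RNAi and otk-1 RNAi otk-2 RNAi embryos, and at 11.5 to 22.8 CPM in replicate 1 of all 10 groups. *Hsp70Ba*, *Hsp70Bc*, *Hsp70Bb* and *Hsp68* had the same shape, and *Hsp68* stood at -0.50 (adjusted p = 0.842) without that library. *Jon25Bi*, a digestive protease gene of the larval gut, had 3.36 and 0.222 CPM in double RNAi embryos, against 38.1 and 27.7 CPM in WT embryos (-4.19 ± 1.33, adjusted p = 0.0167). Outside WT, *Jon25Bi* reached at most 4.07 CPM, in UAS-wnt-4 replicate 1. *Jon99Fii* (-3.83 ± 1.53), *Jon65Aiv* (-2.93 ± 1.35) and *Jon25Biii* (-2.46 ± 0.95) fell in the same way. Both WT libraries of each also stood above all other libraries of the series. *Jon99Fii* had 42.5 and 31.9 CPM in WT embryos and elsewhere at most 4.97 CPM, in double RNAi replicate 1. The levels of these protease genes thus set WT apart from all other groups, not from double RNAi alone. No test was made for those groups. *zye*, an apical matrix gene (-2.47 ± 0.66), and *Cpr47Eg*, a cuticle protein gene (-2.39 ± 0.93), fell too. Of these genes, *w* alone passed in every alternative fit, and *Jon25Bi* did not pass with the stage score (adjusted p = 0.32) or without double RNAi replicate 2 (adjusted p = 0.115).

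Wnt components split by their place in the pathway. Of 7 Wnt ligand genes, 5 fell and the other 2 did not pass, with a list median of -0.49. *wg* had 32.1 and 28.04 CPM in double RNAi embryos, against 38.3 and 63.7 CPM in WT embryos (-0.76 ± 0.20, adjusted p = 0.00635), and without WT replicate 2 it stood at -0.35 (adjusted p = 0.122). *Wnt6* (-0.86 ± 0.23) and *Wnt5* (-0.49 ± 0.15) fell too. Without WT replicate 2, 3 ligand genes were lower, and in the fit of the 4 libraries alone 2 were. Of 12 receptor and co-receptor genes, 8 fell and 4 did not pass (median -0.66). After *otk*, the targeted gene, the largest falls were those of *Drl-2* (-1.19 ± 0.30) and *drl* (-1.003 ± 0.135), which encode Ryk family receptors, and of *fz2* (-0.999 ± 0.127), a Frizzled receptor for Wingless. *fz2* had 220.5 and 261.5 CPM in double RNAi embryos, against 469.0 and 494.1 CPM in WT embryos.

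Inside the cell the direction was mostly the other one. Of 17 genes of canonical transduction and Wnt secretion, 11 rose and 5 fell (median 0.67). *dsh*, which encodes Dishevelled, had 217.3 and 268.8 CPM in double RNAi embryos, against 88.99 and 129.8 CPM in WT embryos (1.15 ± 0.19, adjusted p = 0.000234). *pygo*, a nuclear partner of Armadillo, had 470.6 and 572.4 CPM, against 116.7 and 190.9 CPM in WT embryos (1.76 ± 0.23). *Apc2*, part of the complex that destroys Armadillo, rose by 1.39 ± 0.29, and *wls*, which takes Wnt proteins to the cell surface, by 1.38 ± 0.16. The members that fell included *pan*, the pathway's transcription factor (-0.92 ± 0.15), and *nkd*, a feedback inhibitor that Wingless signaling induces (-0.90 ± 0.17). *arm* itself had 1426 and 1752 CPM in double RNAi embryos, against 1219 and 1477 CPM in WT embryos. The groups of *arm* overlapped, and its difference of 0.24 ± 0.11 (adjusted p = 0.0861) did not pass with RLE scaling or DESeq2 and changed sign with the stage score (-0.03). In the fit with the score, 6 transduction genes were higher and 4 lower. In the branch for planar cell polarity, 7 of 9 genes fell and the other 2 did not pass (median -0.55), led by *stan* (-1.41 ± 0.20), *mwh* (-1.35 ± 0.22) and *pk* (-1.12 ± 0.17), and the same number were lower with the stage score.

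Most other signaling pathways had members in both directions. Of 12 Hedgehog pathway genes, 7 rose, among them *Su(fu)* (1.45 ± 0.13), *cos* (1.08 ± 0.21) and *fu* (0.94 ± 0.18), which work inside the receiving cell. The ligand *hh* (-0.82 ± 0.20) and its receptor and target *ptc* (-0.82 ± 0.18) were among the 3 that fell. Carrying the stage score, 2 Hedgehog genes were higher and 4 lower. Of 23 Notch pathway genes, 14 fell and 7 rose. The risers included *aph-1* (1.26 ± 0.18) and *pen-2* (1.15 ± 0.25), subunits of the γ-secretase that cuts Notch, and *Su(H)*, the pathway's DNA-binding factor (1.11 ± 0.17). *E(spl)mbeta-HLH*, a direct target (-1.09 ± 0.18), and *Ser*, a ligand (-1.06 ± 0.15), fell. The Notch list median of -0.66 was -0.145 without WT replicate 2 and -0.48 without double RNAi replicate 1.

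In the EGF receptor pathway, 11 of 23 genes fell and 6 rose. *Egfr* itself had 119.2 and 104.2 CPM in double RNAi embryos, against 197.8 and 254.1 CPM in WT embryos (-1.02 ± 0.17, adjusted p = 0.000292). The feedback inhibitor *sty* fell (-1.07 ± 0.16), whereas the GTPase *Ras85D* (1.66 ± 0.14), the ubiquitin ligase *Cbl* (1.13 ± 0.18) and the phosphatase *csw* (1.11 ± 0.18) rose. *Ras85D* had 650.6 and 857.9 CPM, against 227.9 and 248.4 CPM in WT embryos, so that even its lower double RNAi library was more than double the higher WT library in level. Of 10 genes of the FGF and PVR pathways, 8 fell and the other 2 did not pass. Those that fell included the ligand *ths* (-0.84 ± 0.14) and the receptors *htl* (-0.79 ± 0.13) and *Pvr* (-0.94 ± 0.16), and *stumps*, which works just under the FGF receptors (-1.19 ± 0.19). Hippo pathway genes fell in 13 of 20 and rose in 6. *ex* (-1.44 ± 0.17) and the giant cadherins *ds* (-1.27 ± 0.17) and *ft* (-1.26 ± 0.17) fell, and the kinases *hpo* (1.01 ± 0.15) and *Tao* (0.79 ± 0.17) rose. In the fit of the 4 libraries alone 8 Hippo genes were lower. Of 17 Dpp pathway genes, 9 fell, among them *Dad* (-1.09 ± 0.13), an inhibitor that Dpp induces, and *shn* (-0.96 ± 0.20). The 3 that rose included *Mad*, the signal transducer (1.15 ± 0.16), and *put*, the type II receptor (1.03 ± 0.15). Of 12 genes of the JNK pathway and dorsal closure, 10 fell, led by *peb* (-1.21 ± 0.12).

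**Figure D2:**
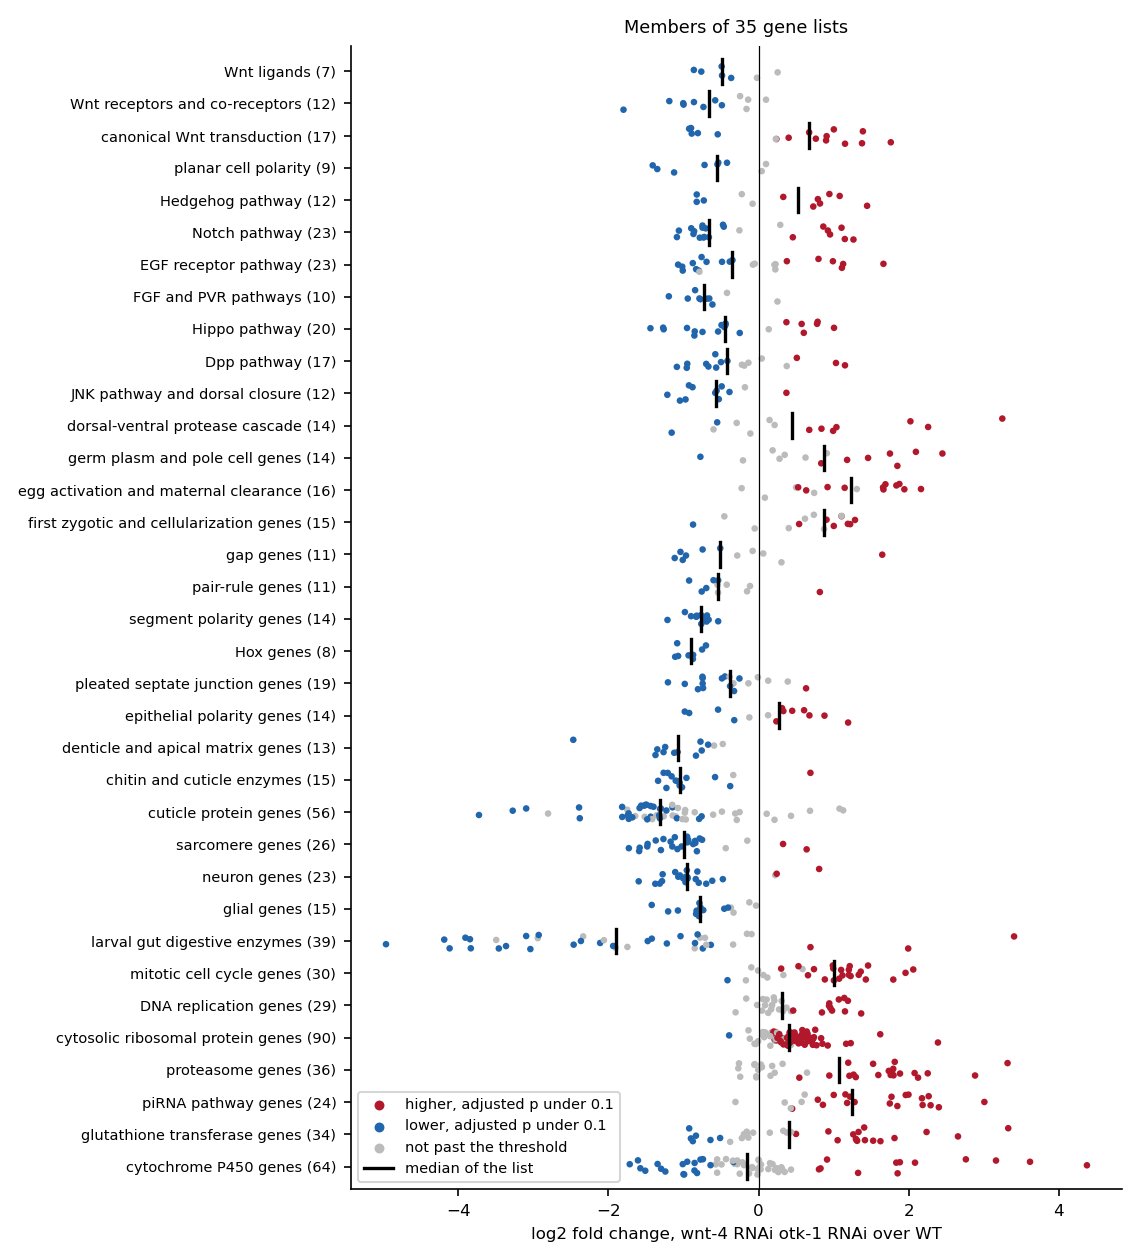
Log2 fold change of double RNAi over WT (x axis) for every tested member of 35 gene lists (number of tested members in brackets), each point a gene and each bar the median of a list. Ligands, receptors, patterning genes and late tissue genes lie mostly left of 0, and maternal, cell cycle, proteasome and piRNA genes mostly right of it.

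Genes that mothers load into the egg were higher. Of 16 genes of egg activation and of the clearance of maternal RNA, 11 rose and 5 did not pass (median 1.23). *smg*, which encodes a repressor that directs this clearance, had 2266 and 2905 CPM in double RNAi embryos, against 484.8 and 964.1 CPM in WT embryos (1.84 ± 0.28). *plu* (2.16 ± 0.40) and *gnu* (1.94 ± 0.61), 2 subunits of the PNG kinase that starts embryonic cell cycles, and the translational repressor gene *cup* (1.88 ± 0.49) rose as well. Of 14 germ plasm and pole cell genes, 7 rose, among them *pgc* (2.45 ± 0.65), *swa* (2.10 ± 0.40), *piwi* (1.85 ± 0.38) and the anterior determinant *bcd* (1.75 ± 0.39), and *tud* fell (-0.77 ± 0.16). Of 14 genes of the dorsal-ventral cascade, 7 rose. The proteases *snk* (2.26 ± 0.37) and *ea* (2.02 ± 0.29) stood beside *gd* at the top, and *ea* had 74.3 and 88.4 CPM in double RNAi embryos, against 13.5 and 26.5 CPM in WT embryos. *pip*, which also acts in salivary glands, fell (-1.16 ± 0.16), as did *dl* (-0.55 ± 0.18). The members higher in the fit with the stage score numbered 6 for egg activation, 1 for germ plasm and 4 for the cascade. The egg activation and germ plasm lists are part of that score. Without WT replicate 2, 11 germ plasm genes were higher.

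The first genes the zygote transcribes also lay higher, and gap and pair-rule genes lay lower, mainly against WT replicate 2. Of 15 first zygotic and cellularization genes, 7 rose, with *halo* (1.28 ± 0.39), *slam* (1.22 ± 0.46) and *dnk* (1.19 ± 0.19) in front, and *sna*, the mesoderm determinant, fell (-0.87 ± 0.25). Only 3 of the 15 were higher without WT replicate 1, 4 without double RNAi replicate 2 and 1 with the stage score. Gap genes, the next tier, fell in 6 of 11, among them *oc* (-1.12 ± 0.20), *ems* (-1.04 ± 0.29) and *btd* (-1.01 ± 0.33). *cad*, which the mother also supplies, was the exception among them (1.65 ± 0.30). Of 11 pair-rule genes, 5 fell, led by *opa* (-0.93 ± 0.33), and *ftz-f1*, which is maternal too, rose (0.82 ± 0.15). The list medians were -0.51 for gap and -0.54 for pair-rule genes. Without WT replicate 2 they were -0.118 and -0.105, and without double RNAi replicate 2 they were -0.365 and -0.346. Mean log2 CPM of gap genes was 4.81 and 4.69 in double RNAi and 4.71 and 5.39 in WT libraries. For pair-rule genes it was 5.04 and 4.92, against 5.03 and 5.66. Libraries of the groups did not overlap in 5 of 11 gap and 6 of 11 pair-rule genes, beside 73.9% of all genes. With the stage score, which the first zygotic, gap and pair-rule lists are part of, 8 gap and 7 pair-rule genes were lower.

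All 14 segment polarity genes tested fell, with a median of -0.76. They are the tier on which Wingless acts. *en*, which Wingless keeps on in the neighbouring cells, had 38.5 and 34.9 CPM in double RNAi embryos, against 40.7 and 77.3 CPM in WT embryos. The 2 WT libraries of *en* lay far apart, and its difference (-0.69 ± 0.25, adjusted p = 0.0293) was -0.15 (adjusted p = 0.566) without WT replicate 2. *H15* (-1.21 ± 0.29) and *mid* (-0.98 ± 0.23), a pair of T-box genes, and *inv*, the paralog of *en* (-0.83 ± 0.22), fell in the same list. *H15* had 4.08 and 3.48 CPM in double RNAi embryos, against 8.94 and 8.58 CPM in WT embryos, with no overlap. Between 10 and 14 of these genes were lower when any one library was left out, and 12 with the stage score. All 8 Hox genes fell (median -0.90), and 8 of 8 did so without any one library. *abd-A* (-1.11 ± 0.17), *lab* (-1.08 ± 0.22), *pb* (-1.07 ± 0.27) and *Scr* (-0.93 ± 0.14) led, and *abd-A* had 95.4 and 79.8 CPM in double RNAi embryos, against 175.5 and 202.8 CPM in WT embryos.

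Genes of the epidermis and its cuticle were lower. Of 19 genes of pleated septate junctions, which seal the epidermis, 12 fell (median -0.39). *cora* had 322.9 and 301.4 CPM in double RNAi embryos, against 711.7 and 521.7 CPM in WT embryos (-0.98 ± 0.19, adjusted p = 0.000786). *bark* (-1.21 ± 0.23), *Nrg* (-0.81 ± 0.18), *Gli* (-0.74 ± 0.11) and *Fas3* (-0.74 ± 0.17) fell with it, and *crok* rose (0.63 ± 0.22). *mesh*, of the smooth septate junctions of the gut, had 129.5 and 92.6 CPM in double RNAi embryos, against 306.2 and 215.7 CPM in WT embryos (-1.23 ± 0.27, adjusted p = 0.00156). Given the stage score, 2 pleated junction genes were lower, and *mesh* did not pass (adjusted p = 0.235). Among 14 genes of epithelial polarity 8 rose and 4 fell. *par-6* (1.19 ± 0.17) and *aPKC* (0.88 ± 0.15) rose, *sdt* fell (-0.92 ± 0.11), *dlg1* stood at 0.31 ± 0.12 (adjusted p = 0.0354) and *l(2)gl* at 0.13 ± 0.09 (adjusted p = 0.251). Without WT replicate 1, and likewise without double RNAi replicate 2 or in the fit of the 4 libraries alone, 4 polarity genes were higher, and 3 were with the stage score. That fit of 4 libraries gave 7 pleated junction genes lower.

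Of 13 denticle and apical matrix genes 11 fell, with *f* (-1.37 ± 0.32) and *dy* (-1.27 ± 0.32) after *zye* and *mwh*. Of 15 genes of chitin and cuticle enzymes 13 fell, among them *Cda4* (-1.34 ± 0.29) and *obst-A* (-1.26 ± 0.26), and *Idgf6* rose (0.69 ± 0.13). Of 56 cuticle protein genes 29 fell (median -1.31), though they are expressed at low levels with wide spread: *Cpr47Eg* had 3.19 and 0.222 CPM in double RNAi embryos, against 13.1 and 4.92 CPM in WT embryos. Leaving out double RNAi replicate 2 lowered the counts to 4 cuticle protein and 7 denticle genes, and leaving out WT replicate 1 to 12 cuticle protein genes. With the stage score, which the cuticle protein list is part of, 2 cuticle protein and 4 denticle genes were lower. *Idgf6* was the single chitin gene that passed in that fit.

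Other differentiated tissues were lower too. Of 26 sarcomere genes 22 fell (median -0.99). *bt* had 334.1 and 201.3 CPM in double RNAi embryos, against 1032 and 579.5 CPM in WT embryos (-1.59 ± 0.37), and *sls*, the fly titin, fell by 1.48 ± 0.31. Of 23 neuron genes 20 fell (median -0.96), among them *para*, the sodium channel (-1.60 ± 0.36), *brp*, of the active zone (-1.38 ± 0.33), and *futsch* (-1.32 ± 0.30). *Csp* rose (0.81 ± 0.12). Without WT replicate 1 the sarcomere genes lower numbered 12 and the neuron genes 7, and without double RNAi replicate 2 they numbered 14 and 13. With the stage score, which both lists are part of, 1 sarcomere gene was lower, and *Csp* was the single neuron gene that passed. Of 11 trachea and salivary gland genes 10 fell, led by *eyg* (-1.36 ± 0.23) and *trh*, the tracheal determinant (-1.28 ± 0.19). Of 15 glial genes 11 fell, with *repo*, the glial determinant, at 21.7 and 22.3 CPM in double RNAi embryos, against 49.0 and 52.5 CPM in WT embryos (-1.20 ± 0.18). Of 22 neuroblast and proneural genes 15 fell, among them *insc* (-1.22 ± 0.23) and *SoxN* (-1.18 ± 0.19), and 18 were lower with the stage score. Without WT replicate 2, 9 of the 22 were. Of 39 larval gut digestive enzymes 23 fell, the lowest list of all by median (-1.90), with 7 lower without double RNAi replicate 2, 9 without WT replicate 1 and 5 with the stage score.

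Most mitotic genes on the list rose. Of 30 mitotic genes 22 rose (median 1.00). *CycB*, which drives entry into mitosis, had 2493 and 2974 CPM in double RNAi embryos, against 614.7 and 1375 CPM in WT embryos (1.46 ± 0.30). *mad2*, of the spindle checkpoint (2.06 ± 0.25), *twe*, the meiotic Cdc25 (1.96 ± 0.25), and *pim*, the securin (1.79 ± 0.28), rose further, and *fzr* fell (-0.41 ± 0.09). Of 29 DNA replication genes 11 rose, a share of 37.9% beside 30.9% of all genes, such as *Cdc6* (1.37 ± 0.23) and *geminin* (1.15 ± 0.16). The number of replication genes higher was 25 without WT replicate 2, and the list median of 0.31 changed sign without WT replicate 1 (-0.02) and with the stage score (-0.20). In the fit with the stage score 11 mitotic and 6 replication genes were higher.

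Of 36 proteasome genes 20 rose (median 1.07), and the risers were not spread evenly over the complex. This division was looked at after the values were seen. The 20S core is the barrel that cuts proteins, and the 19S particle is the cap that binds and unfolds them. In the core 15 of 16 genes rose (median 1.79), and in the cap 5 of 20 (median 0.04). *Prosalpha7*, a core subunit, had 494.5 and 606.0 CPM in double RNAi embryos, against 106.3 and 146.1 CPM in WT embryos (2.12 ± 0.24, adjusted p = 2.51e-05), and *Prosalpha4* rose by 2.25 ± 0.30. *Prosbeta5*, the chymotrypsin-like catalytic subunit, had 356.6 and 501.4 CPM, against 107.8 and 145.6 CPM in WT embryos (1.76 ± 0.25). *Rpn11*, the deubiquitinase of the cap, had 76.9 and 66.6 CPM in double RNAi embryos, against 66.4 and 74.0 CPM in WT embryos (0.03 ± 0.11, adjusted p = 0.816). The ATPase gene *Rpt4* was an exception in the cap (1.19 ± 0.17), as were *Rpn12* (0.94 ± 0.18) and *Rpn6* (0.54 ± 0.13), and *Rpt6R* (2.88 ± 0.42) and *Rpt3R* (1.29 ± 0.35), low-level copies of cap genes. The single core gene that did not pass, *Prosbeta2R2*, stood at no more than 0.514 CPM in any of the 4 libraries. Reads of *Prosalpha1* and its near copy *Prosalpha1R* may be divided between them by the counting. With any one library left out 15 core genes were higher, and with the stage score 14 were. The cap genes higher numbered 5 to 7 and 3 in those fits, and 4 cap genes were lower without double RNAi replicate 1.

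**Figure D3:**
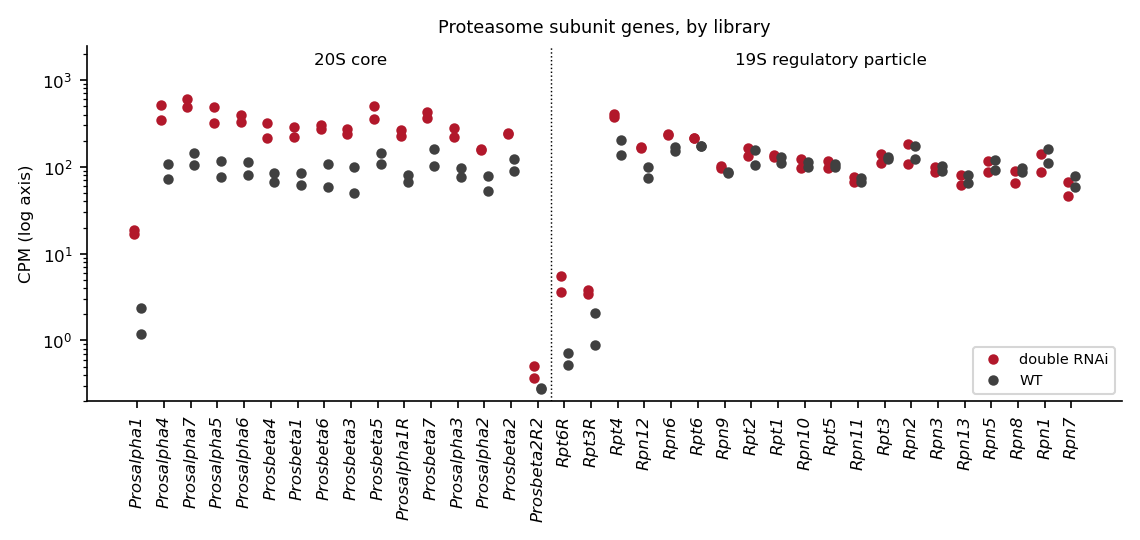
CPM (log axis) of each tested proteasome gene in the 2 double RNAi and the 2 WT libraries, with the 20S core genes left of the dotted line and the 19S genes right of it. In the core the double RNAi points stand above the WT points at every gene, and in the cap most points of both groups overlap or nearly so.

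Ribosomal protein genes rose in 67 of 90 by small amounts (median 0.41), and 1 fell. That was *RpS5a* (-0.39 ± 0.10), and its paralog *RpS5b*, the germline form, rose (1.23 ± 0.23). *RpS5b* had 1284 and 1996 CPM in double RNAi embryos, against 611.0 and 789.4 CPM in WT embryos. *RpS5a* had 948.0 and 1050 CPM, against 1326 and 1296 CPM in WT embryos. These genes are short (median effective length 396 bases), and after removal of the trend with gene length, described below, 33 were higher and the median was 0.11. Without double RNAi replicate 2, 32 were higher, and 32 were in the fit of the 4 libraries alone.

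Genes of small RNA pathways rose. Of 24 piRNA pathway genes, which silence transposons in the germline, 19 rose and 5 did not pass (median 1.25). *mael* had 367.8 and 502.8 CPM in double RNAi embryos, against 41.3 and 67.0 CPM in WT embryos, and *rhi* (2.40 ± 0.32), *moon* (2.29 ± 0.25) and *krimp* (2.27 ± 0.50) followed it. With the stage score 10 were higher. Of 11 genes of the microRNA and siRNA pathways 9 rose, such as *r2d2*, the partner of Dicer-2 (1.48 ± 0.17), and *pasha* (1.05 ± 0.17), and *Dcr-1* fell (-0.49 ± 0.19). Here 5 were higher with the stage score.

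The difference from WT moved with gene length. The effective length, the number of positions at which a fragment can start in a transcript, was used to divide the tested genes into 5 classes of like size. The median log2 fold change was 0.19 in the shortest class (20 to 774 bases) and -0.49 in the longest (3145 to 48484 bases), with 0.07, -0.04 and -0.22 in between. In the shortest class 36.4% of genes rose and 14.8% fell, and in the longest 20.8% rose and 53.3% fell. The difference between the longest and the shortest class was -0.68, and lay between -0.51 and -0.83 when any one library was left out. The trend ran the same way in both double RNAi libraries: relative to the mean of WT, the longest class had a median of -0.40 in replicate 1 and -0.54 in replicate 2. Between the WT libraries it ran the other way, replicate 2 over replicate 1 giving -0.19 in the shortest and 0.10 in the longest class. The double RNAi also showed it against wnt-4 RNAi (0.28 in the shortest and -0.20 in the longest class) and against otk-1 RNAi (0.33 and -0.20). Taken from group means of log2 CPM, the span between the end classes was -0.67 for double RNAi over WT and between -0.35 and 0.01 for the 8 other groups over WT. Across genes, which are not independent replicates, Spearman's rho of fold change with length was -0.21. Many of the genes that fell are long, and the part of length in their falls was not tested beyond a fit with the trend removed. There 14 of 14 segment polarity, 8 of 8 Hox, 7 of 9 planar cell polarity, 13 of 23 Notch and 12 of 23 neuron genes were lower, and 1 planar cell polarity gene was higher.

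**Figure D4:**
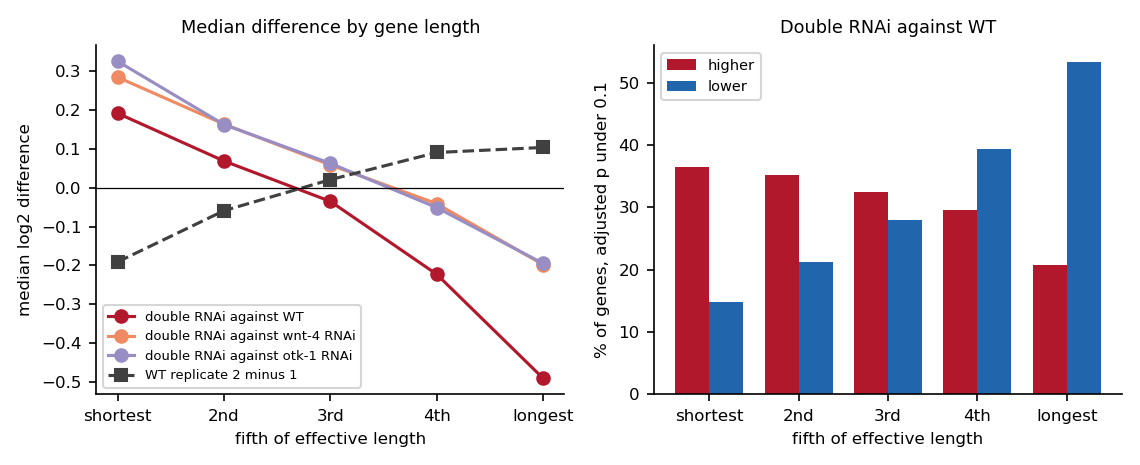
Left, median log2 difference (y axis) in each of 5 classes of effective length (x axis) for double RNAi over WT, over wnt-4 RNAi and over otk-1 RNAi, and for WT replicate 2 over replicate 1. Right, percentage of genes in each class that were higher or lower in double RNAi than in WT. All 3 double RNAi lines fall with length, the WT replicate line climbs, and the percentage lower goes up with length to 53.3%.

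Set directly against the libraries labelled wnt-4 RNAi, whose *Wnt4* RNA goes against that label, the double RNAi differed in 72 of 11154 genes (0.646%), 32 higher (0.287%) and 40 lower (0.359%). Of the 40 lower genes 29 belong to the longest class. With the length trend removed the counts were 30 higher and 21 lower, and DESeq2 gave 90 and 266. *otk*, the target of the added hairpin, had 52.8 and 55.4 CPM in double RNAi embryos, against 120.9 and 124.0 CPM in wnt-4 RNAi embryos (-1.18 ± 0.18, adjusted p = 0.00885). The largest named rise was that of the P450 gene *Cyp4p2*, with 19.1 and 20.9 CPM in double RNAi embryos, against 1.45 and 0.359 CPM in wnt-4 RNAi embryos (4.47 ± 0.40, adjusted p = 8.64e-05). *Drsl5*, of the Drosomycin family of defence peptides, had 58.4 and 131.3 CPM, against 16.2 and 11.1 CPM in wnt-4 RNAi embryos (2.80 ± 0.37). *Cyp9f3* (2.43 ± 0.31), *p24-2* (1.46 ± 0.22), *eIF4E3* (1.39 ± 0.32) and *RpL37A* (0.48 ± 0.11) were the other named rises. The last 2 did not pass in a fit of the 4 libraries alone (adjusted p = 0.363 and 0.359). Set against WT instead, *Cyp4p2* (0.91 ± 0.32, adjusted p = 0.026) and *RpL37A* (0.45 ± 0.11, adjusted p = 0.00341) were higher too. *Drsl5* (-0.02 ± 0.34, adjusted p = 0.958) and *Cyp9f3* (0.03 ± 0.28, adjusted p = 0.925) did not pass there. *p24-2* had 16.4 and 18.75 CPM in double RNAi embryos, below the 63.0 and 38.3 CPM of WT embryos. *eIF4E3* overlapped WT (12.7 and 30.0 CPM, against 12.7 and 13.8 CPM).

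Among the falls against wnt-4 RNAi were *thw* (-1.66 ± 0.27), *Corin* (-1.30 ± 0.23), *Spn47C* (-1.26 ± 0.28), *Pask* (-1.24 ± 0.20) and *GstE3* (-1.21 ± 0.28). *thw* had 17.0 and 14.1 CPM in double RNAi embryos, against 46.0 and 52.1 CPM in wnt-4 RNAi embryos, and *GstE3* had 16.4 and 25.8 CPM, against 41.8 and 55.8 CPM in wnt-4 RNAi embryos. In both genes the wnt-4 RNAi libraries stood above the double RNAi, otk-1 RNAi and WT libraries alike. That level was not particular to wnt-4 RNAi. *thw* had 46.0 and 42.3 CPM in otk-2 RNAi, 54.5 and 48.0 CPM in wnt-4 RNAi otk-2 RNAi and 44.15 and 35.8 CPM in otk-1 RNAi otk-2 RNAi embryos. *GstE3* had 33.3 and 53.2 CPM in wnt-4 RNAi otk-2 RNAi embryos. *Corin*, *Spn47C*, *Pask* and *GstE3* did not pass in a fit of the 4 libraries alone (adjusted p = 0.111 to 0.307). Of the lists, Hippo pathway genes had 3 of 20 lower, *ft* (-0.80 ± 0.17), *ex* (-0.78 ± 0.17) and *ds* (-0.74 ± 0.17). *ft* had 168.4 and 159.6 CPM in double RNAi embryos, against 264.0 and 305.2 CPM in wnt-4 RNAi embryos, and the wnt-4 RNAi libraries were in turn below WT (355.9 and 431.4 CPM). All 3 genes are in the longest class. Leaving out 1 library at a time gave between 15 and 49 genes past the threshold, the fewest without wnt-4 RNAi replicate 2 and the most without double RNAi replicate 1. The counts were 35 without double RNAi replicate 2 and 27 without wnt-4 RNAi replicate 1.

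Against otk-1 RNAi embryos, 3476 genes (31.2%) passed, 2172 higher (19.5%) and 1304 lower (11.7%) in double RNAi. *Cyp6a20* had the largest named rise, with 31.6 and 53.2 CPM in double RNAi embryos, against 8.54 and 7.43 CPM in otk-1 RNAi embryos (2.41 ± 0.30, adjusted p = 0.000604). *fuss*, of the Ski/Sno family of transcriptional co-repressors, had 12.6 and 24.6 CPM, against 5.30 and 6.01 CPM in otk-1 RNAi embryos (1.72 ± 0.27). *AsnS*, asparagine synthetase, had 183.3 and 239.3 CPM, against 66.2 and 72.0 CPM in otk-1 RNAi embryos (1.61 ± 0.23). None of these libraries overlapped between the groups. *Arc2* (1.61 ± 0.28), *EMC2A* (1.51 ± 0.18) and *Ir76a* (1.45 ± 0.26) came next. The largest named falls were those of *Or19b* (-1.15 ± 0.31), *Clk*, a clock gene (-1.11 ± 0.31), *Cyp4p2* (-1.08 ± 0.32), *jeb*, the ligand of the Alk receptor in the visceral mesoderm (-1.06 ± 0.20), *shn* (-1.05 ± 0.20) and *ftz* (-1.04 ± 0.43, adjusted p = 0.0994). *shn* had 50.9 and 48.0 CPM in double RNAi embryos, against 97.4 and 107.4 CPM in otk-1 RNAi embryos, and *jeb* had 6.06 and 5.81 CPM, against 13.3 and 11.4 CPM.

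Gene lists were also counted against otk-1 RNAi. There, 11 of 20 Hippo, 10 of 17 Dpp, 9 of 14 segment polarity, 11 of 22 neuroblast and 10 of 21 mesoderm and muscle regulator genes were lower, beside 11.7% of all genes. Higher against otk-1 RNAi, beside 19.5% of all genes, were 54 of 90 ribosomal protein, 8 of 17 canonical Wnt transduction and 13 of 16 proteasome core genes. The shares over all genes moved with gene length: 1.4% were lower in the shortest class and 27.4% in the longest. Of the 2172 genes higher, 520 were in the shortest class and 245 in the longest. Median effective lengths were 3274 bases for Hippo, 3110 for Dpp and 396 for ribosomal protein genes. Canonical Wnt transduction genes, at 3512 bases, went the other way. The part of length in these list counts was not tested. Most genes of differentiated muscle and neurons did not pass here: 1 of 26 sarcomere genes was higher, and 2 of 23 neuron genes were. The stage scores of otk-1 RNAi libraries, -2.05 and -2.06, lay below those of double RNAi (-1.30 and -1.86). Without double RNAi replicate 2 the genes past the threshold numbered 1089, without otk-1 RNAi replicate 1 they numbered 1699, and without otk-1 RNAi replicate 2 they numbered 1866. Double RNAi replicate 2 was the further of the pair from otk-1 RNAi in *Cyp6a20*, *fuss* and *AsnS*.

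**Figure D5:**
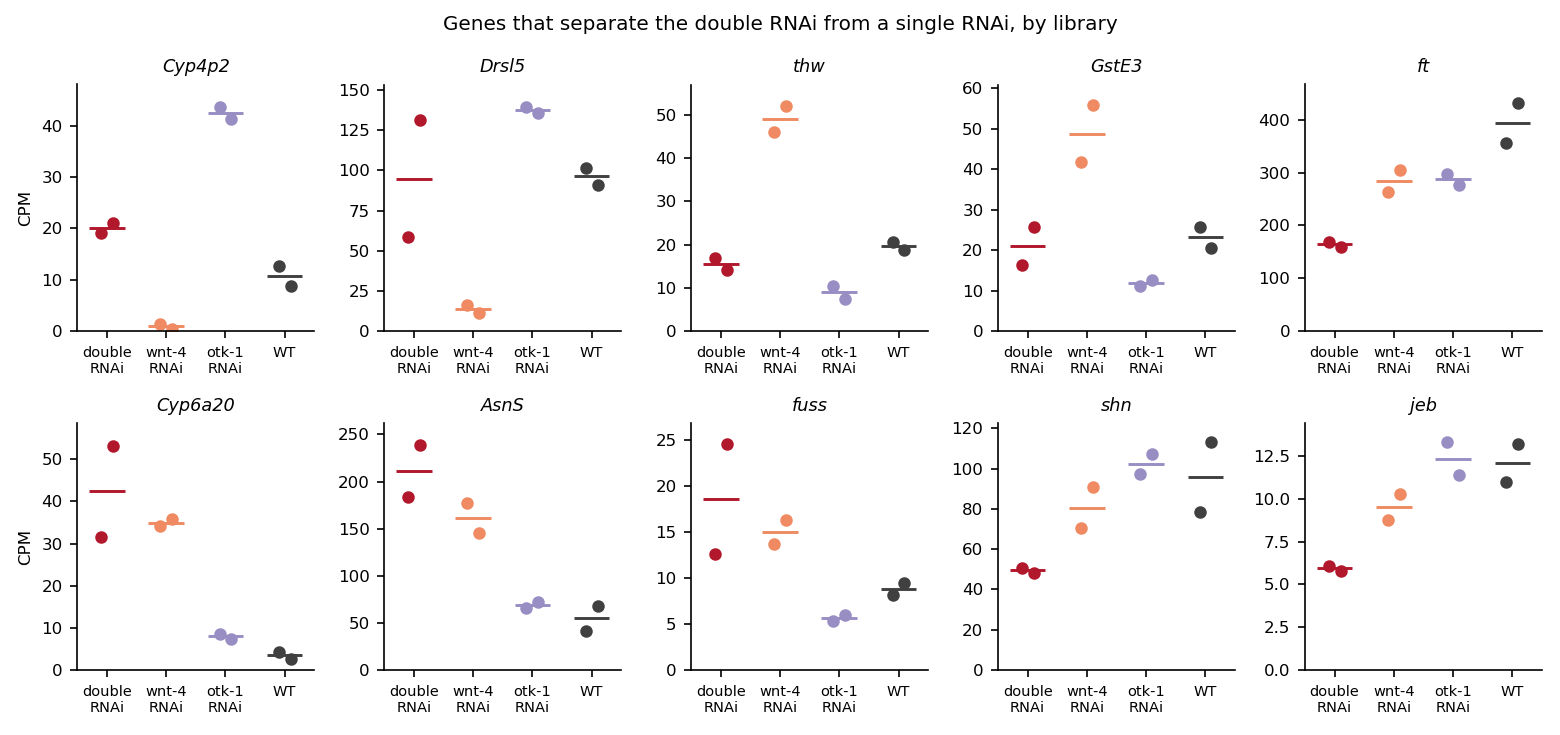
CPM (y axis, starting at 0) of 10 genes in the libraries of double RNAi, wnt-4 RNAi, otk-1 RNAi and WT embryos (points; lines are group means, n = 2). In the top row double RNAi stands apart from wnt-4 RNAi, with *Cyp4p2* at 19.1 and 20.9 CPM between the single RNAi groups and *ft* under all other groups, and in the bottom row it stands apart from otk-1 RNAi.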

How the data were processed

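RNA-seq of 20 whole embryo libraries (10 groups of 2) was used as gene tables in which the authors deposited expected counts, made per the labels and the study's methods with STAR 2.7.1a and RSEM 1.3.1 on annotation BDGP6.22 (release 97). RSEM divides reads that fit several genes among them. The TPM and FPKM columns were not used. Of the expected count values, 11.57% were not whole, and all were rounded. Symbols and positions came from BDGP6.54 (release 115). Of 17714 genes, 426 (ribosomal, small nuclear, small nucleolar and mitochondrial RNA) were removed (5.99 to 10.9% of counts), and 11154 that averaged at least 10 counts were tested, with 30762928 to 38843051 counts per library.

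Counts were scaled by TMM and fitted over all 20 libraries by group, and edgeR 4.0.16 gave the quasi-likelihood test (R 4.3.3, limma 3.58.1), with Benjamini-Hochberg adjustment over all genes tested and a threshold of 0.1. The common dispersion was 0.0336. The SE of a log2 fold change is its absolute value divided by the square root of the quasi-likelihood F statistic. Scripts were tested on simulated data. The gene lists and the genes to be followed were chosen with earlier results of these data known. Named genes were the targets and a fixed set of pathway and junction genes, up to 4 members per list with the largest change and up to 2 in the other direction, and the 12 (against WT) or 6 (against single RNAi) largest changes each way among named genes that averaged at least 100 counts and whose groups did not overlap. Genes given outside these rules illustrate a list and were chosen after their values were seen. Lists were described by counts and medians, without a set test.

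Alternatives were DESeq2 1.42.0, RLE scaling, other filters on low counts, a threshold of 0.05, a fit of the compared libraries alone, a replicate block, the stage score as a covariate, removal of each library's trend with effective length (lowess span 0.3) and leaving out each library. Promoter motifs were not analysed here.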

Additional observations from a re-analysis of the deposited data

How the results depend on the processing

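Against WT, the counts of genes past the threshold, higher and lower moved by over 1.5 times with the stage score as a covariate (3689, 2193 and 1496), and leaving out 1 library gave 5117 to 7005, 2838 to 3475 and 2279 to 3530. Against wnt-4 RNAi the same 3 counts were 356, 90 and 266 with DESeq2, 20, 14 and 6 in a fit of the compared libraries alone, 183, 65 and 118 with the stage score, and 32, 21 and 11 at a threshold of 0.05. A filter on the compared libraries gave 153 past it, 115 of them lower, no filter gave 26 lower and removal of the length trend 21 lower. Leaving out 1 library gave 15 to 49, 12 to 37 and 3 to 14. Against otk-1 RNAi no filter gave 796 genes lower, and leaving out 1 library gave 1089 to 3608, 806 to 2208 and 283 to 1400. The causes were not tested, except that fewer libraries enter some fits. Against WT the sign changed for *Cpr47Eb* (1.81), *arm* (-0.031), *crq* (-0.007) and *l(2)efl* (0.53) with the stage score, for *Corin* (0.52) with the length trend removed, and for *eIF4E3* without double RNAi replicate 2 (-0.050, against 1.157 without replicate 1).

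Replicate numbers were not taken to pair the samples, since the deviations of double RNAi and WT libraries correlated with r = 0.057 across genes and 17 of 45 pairs of groups, not all, passed 0.1. Heat shock genes such as *Hsp70Ab* were nonetheless high in replicate 2 of 6 groups, WT among them and double RNAi not. With the replicate block 7040 genes passed against WT, 78 against wnt-4 RNAi and 3592 against otk-1 RNAi. The length trend kept its direction under all 5 alternatives run. Depth is similar in all libraries, so the precision is limited by n = 2, and genes of a few CPM have wide errors.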

Other observations

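Gene families of detoxification had members in both directions. Over all genes 30.9% were higher and 31.4% lower in double RNAi than in WT embryos. Of 34 glutathione transferase genes 16 were higher (47.1%) and 6 lower (17.6%). Of 64 cytochrome P450 genes 12 were higher (18.8%) and 18 lower (28.1%), both under the shares over all genes. Without WT replicate 1 the P450 genes lower numbered 7, and with the stage score 9 P450 genes were higher and 2 lower, and 12 transferase genes were higher. Of 3 GILT family genes all 3 were higher. Of 12 apoptosis genes 5 were higher (41.7%), with the initiator caspase gene *Dronc* at 1.89, and 4 were lower (33.3%).

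Chromosome arms hardly differed: the share of genes higher than WT lay between 30.2% and 32.1% on X, 2L, 2R, 3L and 3R. Genes without introns (1267) were lower in 22.5% and higher in 31.1%, beside 31.4% and 30.9% of all genes. Non-coding genes (492) were lower in 9.96% and higher in 18.9%.

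CG43755, picked after its values were seen, had 34.7 and 28.2 CPM in double RNAi embryos, 0.84 and 0.196 CPM in wnt-4 RNAi embryos, 52.2 and 51.1 CPM in otk-1 RNAi embryos, and 0.083 and 0.114 CPM in WT embryos.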
